A study of Homo sapiens with 6 samples.

Results

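The noncoding snoRNA host genes GAS5, SNHG1, SNHG3, SNHG5, SNHG6, SNHG7, SNHG8, SNHG12, SNHG15 and ZFAS1 were taken by gene symbol from the RNA-seq of BCT-treated prostate cancer cells, and all 10 were found among 26255 genes. The cells were 22RV1, a human castration-resistant prostate cancer line grown in RPMI medium with fetal bovine serum. In the experiment, 3 samples received the vehicle DMSO and 3 samples received 10 nM bruceantin (BCT), each for 24 h. All samples come from 1 cell line, dose and time point, and no label says whether replicates were separate cultures, so p-values measure only the spread between these samples, which may be technical. Values are FPKM, fragment numbers scaled to transcript length and to library size. Levels can therefore be compared roughly between genes, less surely for very short RNAs and for genes that share a listed interval. In such bulk samples, fewer cells of a kind and less RNA per cell cannot be told apart.

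A snoRNA host gene carries small nucleolar RNAs in its introns. These short RNAs guide methylation and pseudouridylation of ribosomal RNA, and they are trimmed out of the excised intron after splicing. The exons that remain are joined into a long RNA. In the noncoding hosts this RNA has no long reading frame, but ribosomes can read the short frames near its 5′ end, and the RNA is then open to nonsense-mediated decay, a pathway that degrades RNAs whose stop codon lies upstream of an exon junction. Because that decay needs translation, the spliced RNAs of such hosts are known to accumulate when translation is blocked. Many host genes, coding and noncoding, also begin with a 5′ terminal oligopyrimidine (TOP) stretch, a feature shared with ribosomal protein genes. BCT is a quassinoid, a plant compound class that includes known inhibitors of protein synthesis.

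The start of each host is shown here because TOP genes are recognised by their first bases. RefSeq promoter windows (assembly GRCh38.p14) were matched by symbol for 8 of the 10 genes, SNHG6 and SNHG15 being the other two. In the RefSeq lines the annotated start is base 11, in the last line it is base 1, and capitals mark the longest run that begins with C and continues with at least 4 further C or T bases, where its C lies within 10 bases of the start.
SNHG12, chr1:28581844-28581883 of GRCh38, minus strand: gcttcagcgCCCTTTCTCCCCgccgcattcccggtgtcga
ZFAS1, chr20:49278632-49278671 of GRCh38, plus strand: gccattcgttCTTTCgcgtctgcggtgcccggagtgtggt
SNHG1, chr11:62855856-62855895 of GRCh38, minus strand: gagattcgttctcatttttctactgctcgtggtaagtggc
GAS5, chr1:173869016-173869055 of GRCh38, minus strand: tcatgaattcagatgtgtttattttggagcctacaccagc
SNHG7, chr9:136728155-136728194 of GRCh38, minus strand: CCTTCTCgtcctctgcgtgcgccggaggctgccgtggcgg
SNHG8, chr4:118278752-118278791 of GRCh38, plus strand: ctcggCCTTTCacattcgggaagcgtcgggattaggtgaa
SNHG3, chr1:28505933-28505972 of GRCh38, plus strand: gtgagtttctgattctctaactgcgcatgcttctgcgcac
SNHG5, chr6:85678704-85678743 of GRCh38, minus strand: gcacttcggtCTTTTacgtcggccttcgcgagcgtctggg
GAS5 transcript of 631 bases, chr1:173837098-173837127 of GRCh37, minus strand: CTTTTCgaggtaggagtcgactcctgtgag
The last line gives the first 30 bases of a GENCODE transcript of GAS5, whose start differs from the RefSeq one. Such a run lay at or near 5 of the 8 RefSeq starts (62.5%), those of SNHG12, ZFAS1, SNHG7, SNHG8 and SNHG5. Only the marked runs of ZFAS1 and SNHG5 began exactly at the annotated start. The marked run of SNHG7 ended before it, but a shorter, unmarked run that meets the same rule spans the start of SNHG7. Over all 27305 promoter windows of the same length the share was 33.3%. Read on the opposite strand it was 25% for the 8 genes and 31.3% for all windows. Among the other noncoding hosts listed below, 9 of 15 matched starts held one. The run was longest at SNHG12, with 12 bases. GAS5, SNHG1 and SNHG3 held none at the RefSeq start, and these letters alone say nothing about the factors that bind there. The match describes letters at an annotated start and no measured start site.

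The reading frames near the 5′ end were taken from GENCODE transcripts lifted to GRCh37, the build of the deposited files. Only spliced transcripts of support level 1 were used, which gave 20 transcripts of the 10 genes. The frame from the first ATG ended at least 50 bases before the last exon junction, a common criterion for nonsense-mediated decay, in 18 of the 20 transcripts (90.0%) and in 9 of the 10 genes. The 2 exceptions were the transcripts of SNHG3. The share was 80.2% among 2931 other lncRNA transcripts, so this arrangement was common among noncoding RNAs in general. In those 18 transcripts the frame had 5 to 117 codons. The frames of 2 transcripts are shown, for a host that rose and a host that fell, with the start and stop codons in capitals.
SNHG12 transcript of 728 bases, bases 132 to 281 of the spliced RNA: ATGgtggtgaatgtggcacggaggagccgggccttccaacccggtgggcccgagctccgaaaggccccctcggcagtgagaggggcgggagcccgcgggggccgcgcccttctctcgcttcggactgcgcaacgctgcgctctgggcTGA
SNHG5 transcript of 934 bases, bases 76 to 114 of the spliced RNA: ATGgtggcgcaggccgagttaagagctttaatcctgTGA
In the SNHG12 transcript the stop codon lay 304 bases before the last junction and in the SNHG5 transcript 716 bases. The frame had 49 codons in SNHG12 and 12 in SNHG5. Both transcripts carried 4 junctions at least 50 bases past the stop. Each of these 2 annotated transcripts held the arrangement. Levels of single transcripts were not tested.

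Summed over all genes, FPKM ranged from 1169650 to 1572320 in the DMSO group and from 757534 to 799838 in the BCT group. No counts were used here, and the depth behind each value is unknown except as a ratio to DMSO replicate 1, estimated from genes of low value, of 0.877 to 1 in the DMSO group and 1.05 to 1.13 in the BCT group. The 8 prostate luminal markers were above 0 in every sample. Their summed level was 346.3 to 390.9 FPKM in DMSO samples and 166.6 to 227.7 FPKM in BCT samples. By the thresholds given below, 5 of the 8 were called lower, where 17.8% of all tested genes were. The log2 fold change was negative in 7 of the 8. FOLH1 went the other way at 0.39 and was not called. Of 6 fibroblast, endothelial and leukocyte markers, 5 stayed at or below 0.177 FPKM in every sample, and COL1A1, a collagen gene, was at 1.23 to 1.55 FPKM in DMSO samples and 5.04 to 6.31 FPKM in BCT samples. The part of these differences in the results on host genes was not tested.

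The comparison asked how the RNA of these hosts differed between BCT-treated and DMSO-treated cells. It did not move in 1 direction. SNHG12, SNHG15 and ZFAS1 rose, SNHG3 and SNHG5 fell, and SNHG1, GAS5 and SNHG7 were higher in all BCT samples without reaching the fold threshold. Fold changes were taken on log2(FPKM + 0.1) and tested with limma, where 12729 genes had a mean level of 1 FPKM or more. A call required a fold change beyond 0.85 on the log2 scale in either direction together with an FDR (Benjamini-Hochberg) under 0.05. All 10 hosts passed the filter on low values. Of the 10, 3 were called higher, where 13.9% of all tested genes were, and 2 were called lower, where 17.8% were, so that 5 of 10 were called in either direction against 31.6%. The FDR alone was passed by 9 of the 10, and by 82.1% of all tested genes. The BCT samples lay above all DMSO samples in 6 hosts (41.0% of all tested genes) and below them in 3 hosts (44.3%). The median log2 fold change was 0.74 over the 10 hosts and -0.038 over all tested genes. The list is described here and was not tested as a group.

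**Figure D1:**
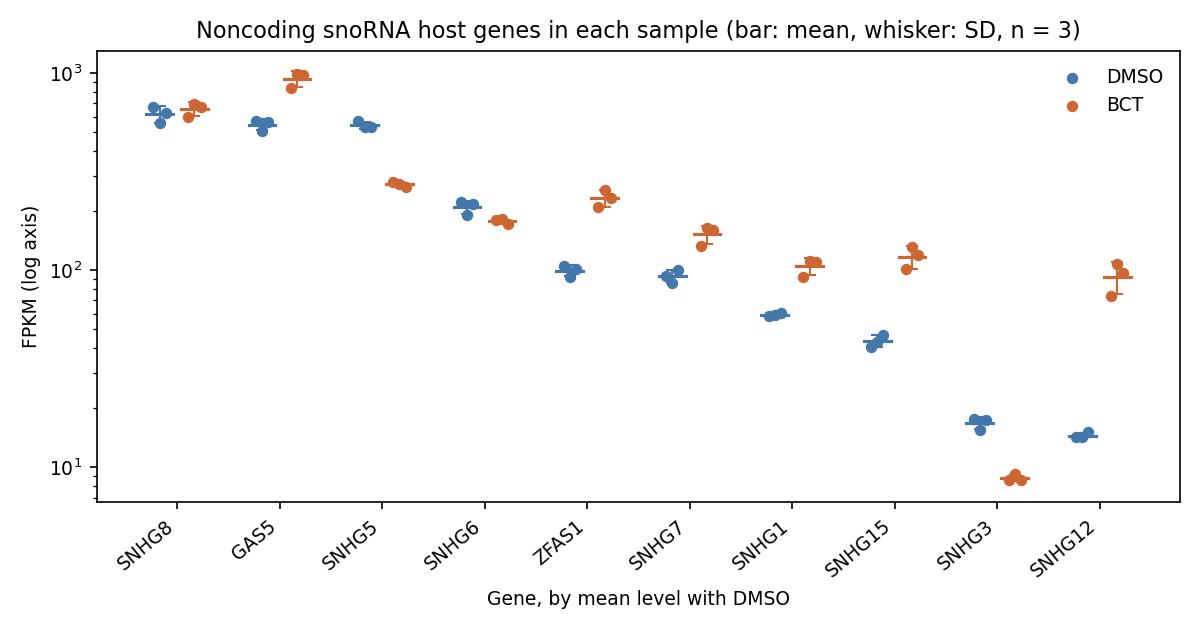
FPKM of the 10 noncoding snoRNA host genes in each of the 6 samples, on a log axis, ordered by mean level with DMSO. Points are samples, bars are means and whiskers are SDs (n = 3 each). SNHG12 moved from 14.1 to 14.99 FPKM with DMSO to 74.0 to 107.3 FPKM with BCT, and the 2 groups overlap only in SNHG8.

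SNHG12, which hosts snoRNAs of both the H/ACA and the C/D class, had the largest change of the 10. It was at 14.1, 14.2 and 14.99 FPKM in the controls, and BCT samples measured 74.0, 107.3 and 96.4 FPKM. Every BCT sample was far above every DMSO sample, and BCT replicate 1 was the lowest of the treated samples. The mean was 6.42 times that with DMSO, a difference of 2.66 in log2(FPKM + 0.1) (SE 0.12, limma FDR 7.6e-07). By signed log2 fold change, where every fall ranks below every rise, it stood at the 99.0th percentile of the tested genes.

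SNHG15, a short host on chromosome 7 that holds SNORA9, was at 40.8, 43.0 and 47.0 FPKM in the controls, and BCT samples measured 100.8, 131.1 and 118.8 FPKM. The groups did not overlap, and the lowest treated sample was again BCT replicate 1. The log2 fold change was 1.42 (SE 0.098, limma FDR 3.3e-06). ZFAS1, antisense to the 5′ end of ZNFX1 and host of the SNORD12 family, was at 104.8, 92.0 and 100.5 FPKM in the controls, and BCT samples measured 207.7, 253.9 and 231.3 FPKM. All its treated samples were higher than any control, with BCT replicate 1 lowest. Its log2 fold change was 1.22 (SE 0.082, limma FDR 2.9e-06).

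GAS5, named for its accumulation in growth-arrested cells, was among the most abundant RNAs of the set. It was at 568.7, 505.8 and 564.7 FPKM in the controls, and BCT samples measured 839.6, 991.1 and 975.1 FPKM. The treated samples were all higher, with a log2 fold change of 0.77 (95% interval 0.59 to 0.96). SNHG1, which hosts a run of C/D snoRNAs, was at 58.1, 59.0 and 60.6 FPKM in the controls, and BCT samples measured 92.1, 110.5 and 110.1 FPKM. The controls lay within a narrow range, and the log2 fold change was 0.81 (95% interval 0.64 to 0.98). SNHG7 was at 93.0, 85.5 and 99.7 FPKM in the controls, and BCT samples measured 133.0, 162.7 and 159.3 FPKM. Its log2 fold change was 0.71 (95% interval 0.50 to 0.91). These 3 hosts passed the FDR (2.7e-05, 1.5e-05 and 1.0e-04 by limma), but their fold changes lay just under 0.85 and their intervals included it. Without BCT replicate 1, SNHG1 reached 0.90 and was called, which made 4 of the 10 called higher. Without each of the other 5 samples in turn, 3 were called higher.

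SNHG8 was the most abundant host with DMSO and its groups overlapped. It was at 673.7, 554.2 and 628.5 FPKM in the controls, and BCT samples measured 595.9, 698.2 and 671.3 FPKM. The log2 fold change was 0.084 with a 95% interval from -0.12 to 0.28, and it did not pass the test (limma FDR 0.39). SNHG6 was at 220.1, 189.3 and 215.5 FPKM in the controls, and BCT samples measured 178.5, 181.3 and 171.5 FPKM. Each treated sample was below each control by a small margin, with a log2 fold change of -0.23 (95% interval -0.38 to -0.081; limma FDR 0.010).

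SNHG5, host of the SNORD50 pair, was at 569.2, 530.9 and 530.4 FPKM in the controls, and BCT samples measured 278.9, 272.3 and 264.2 FPKM. The treated samples lay in a narrow range, and their mean was 0.50 times that of the controls. The log2 fold change was -0.999 (SE 0.051, limma FDR 1.0e-06). SNHG3, host of SNORA73A and SNORA73B, was at 17.6, 15.5 and 17.3 FPKM in the controls, and BCT samples measured 8.61, 9.18 and 8.60 FPKM. No treated sample reached the lowest control, and the log2 fold change was -0.92 (SE 0.066, limma FDR 3.9e-06). In a test against the fold threshold itself, SNHG3 did not pass (limma FDR 0.55) and SNHG5 passed narrowly (limma FDR 0.049). SNHG12, SNHG15 and ZFAS1 passed it too (limma FDR 1.6e-05, 0.0019 and 0.0071). The 95% intervals of SNHG3 and SNHG5 overlapped each other and lay below those of the other 8 hosts.

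**Figure D2:**
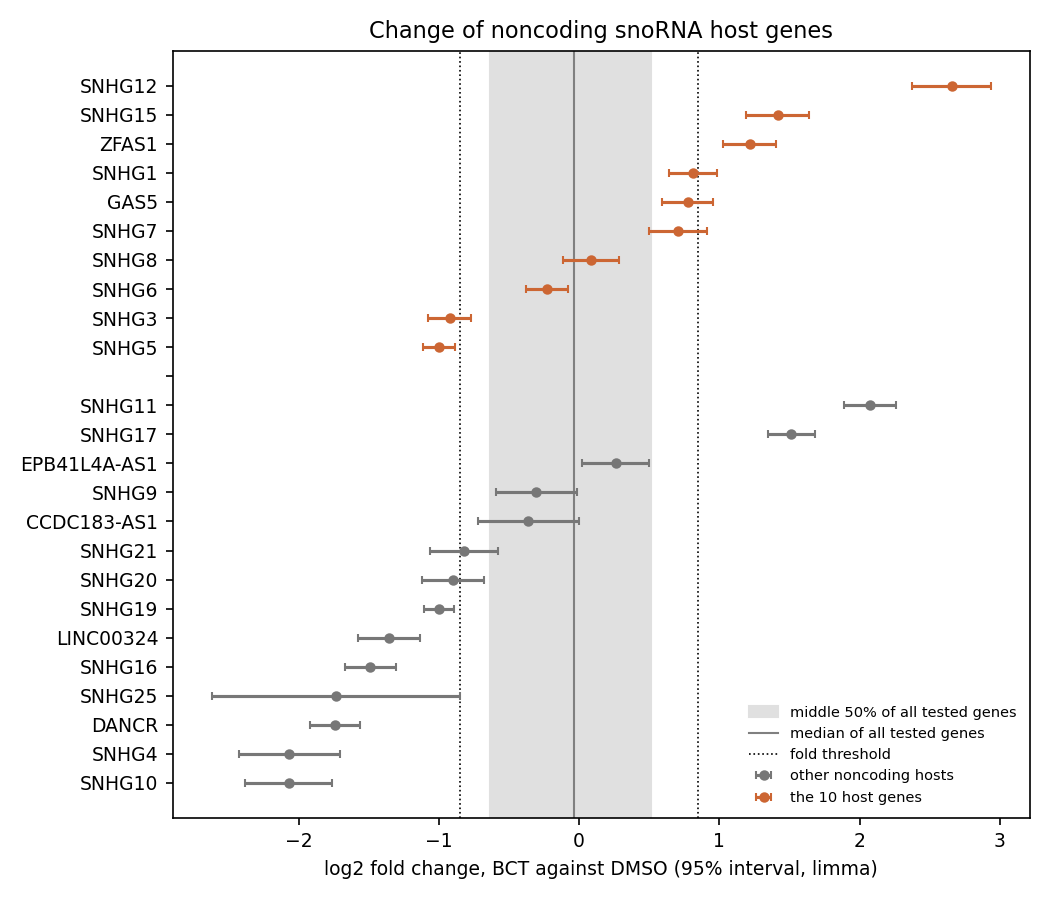
Log2 fold change, BCT against DMSO, of the 10 host genes and of 14 other noncoding hosts, with 95% intervals from limma (n = 3 each). The grey band holds the middle 50% of all tested genes and dotted lines mark the fold threshold of 0.85. The 10 hosts range from -0.999 (SNHG5) to 2.66 (SNHG12), and the other hosts from -2.07 (SNHG10) to 2.08 (SNHG11).

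With DMSO the hosts spanned from the 55.8th to the 98.8th percentile of the tested genes by level. SNHG8 (618.8 ± 60.3 FPKM, SD, n = 3), GAS5 (546.4 ± 35.2 FPKM) and SNHG5 (543.5 ± 22.3 FPKM) came first, and their samples overlapped. SNHG6 followed at 208.3 ± 16.6 FPKM. ZFAS1 (99.1 ± 6.50 FPKM) and SNHG7 (92.7 ± 7.10 FPKM) overlapped each other. SNHG1 stood at 59.2 ± 1.26 FPKM, SNHG15 at 43.6 ± 3.16 FPKM, SNHG3 at 16.8 ± 1.14 FPKM and SNHG12 last at 14.4 ± 0.482 FPKM, with no overlap between neighbours. With BCT the order changed. GAS5 was first at 935.3 ± 83.3 FPKM, above SNHG8 at 655.2 ± 53.0 FPKM without overlap. SNHG5 (271.8 ± 7.35 FPKM), ZFAS1 (230.9 ± 23.1 FPKM), SNHG6 (177.1 ± 5.07 FPKM) and SNHG7 (151.7 ± 16.3 FPKM) followed, each apart from the next. SNHG15 (116.9 ± 15.2 FPKM), SNHG1 (104.3 ± 10.5 FPKM) and SNHG12 (92.6 ± 16.98 FPKM) overlapped in sequence, and SNHG3 was last at 8.80 ± 0.333 FPKM. SNHG12 and SNHG3 were next to each other in both orders but changed places, and their levels lay further apart with BCT.

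The size of each change depended on how the samples were scaled, and the FPKM sums differed between the groups. A scaling to equal sums moved the median of all tested genes from -0.038 to 0.72, and one to equal sums without MIR6087, a microRNA gene of very high listed FPKM, moved it to 0.34. With equal sums 7 hosts were called higher and 0 lower, where 44.1% of all tested genes were called higher and 5.25% lower. Without MIR6087 the counts were 6 and 0, against 26.5% and 9.49% of all tested genes. Quantile normalization gave 6 higher and 1 lower (15.0% and 15.7% of all tested genes), and median-ratio scaling gave 3 and 2 (14.9% and 16.7%). SNHG12, SNHG15 and ZFAS1 were called higher under every scaling. GAS5, SNHG1 and SNHG7 were above the median of all genes by at least 0.66 on the log2 scale under every scaling and other alternative. SNHG3 and SNHG5 stayed negative under every scaling, but their calls did not hold under every one. They were at -0.16 and -0.23 with equal sums and at -0.54 and -0.61 without MIR6087, and were not called in either. After quantile normalization SNHG3 was called at -0.92, and SNHG5 at -0.60 was not. Relative to the median of all genes, SNHG3 lay between -0.97 and -0.83 and SNHG5 between -1.05 and -0.63 over all alternatives. SNHG6 changed sign, to 0.54 with equal sums, 0.16 without MIR6087 and 0.089 after quantile normalization. SNHG8 reached 0.85 with equal sums, where it was called.

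**Figure D3:**
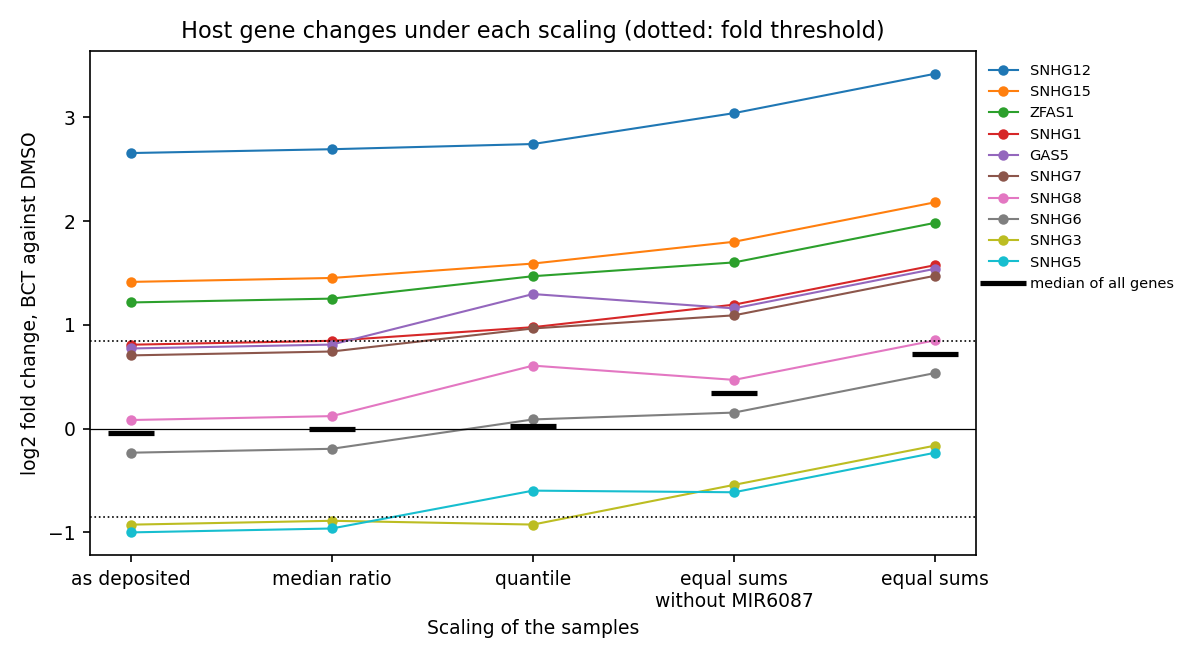
Log2 fold change, BCT against DMSO, of each host gene under 5 scalings of the samples, with the median of all tested genes as a black bar and the fold threshold of 0.85 as dotted lines. SNHG12, SNHG15 and ZFAS1 lie above the threshold under each scaling, and SNHG3 and SNHG5 lie below the median of all genes under each.

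The library kit does not mark strand, so reads from a host and from a gene on the opposite strand cannot be told apart where their exons overlap. In the files the hosts SNHG3, SNHG6, SNHG7, SNHG12 and ZFAS1 share their listed interval with a coding gene, and GAS5 with GAS5-AS1. TRNAU1AP, a gene for a selenocysteine tRNA-associated protein that shares the interval of SNHG12 (chromosome 1 from 28879529 to 28908366 on hg19), was at 20.8 ± 1.09 FPKM with DMSO and 23.9 ± 0.746 FPKM with BCT (SD, n = 3). Its log2 fold change of 0.20 had a 95% interval of 0.069 to 0.33, far from that of SNHG12 at 2.38 to 2.94. ZNFX1, which shares the interval of ZFAS1 on chromosome 20 (47862439 to 47905795), had a log2 fold change of 0.25 (95% interval 0.028 to 0.48), against 1.03 to 1.40 for ZFAS1. DDX27, a helicase gene 1825 bases from the ZNFX1 end of that interval, was called higher at 1.43. The GENCODE transcripts of ZFAS1 begin only at 47894715 or beyond, so DDX27 is near the listed interval and not near ZFAS1 itself.

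FAM69B, in the interval of SNHG7 on chromosome 9 (139607024 to 139622636), went the other way from its host. Its level fell from 14.8 ± 0.460 to 6.16 ± 0.791 FPKM (SD, n = 3), or by 1.26 on the log2 scale. GAS5-AS1 fell from 1.49 ± 0.250 to 0.646 ± 0.043 FPKM, or by 1.08 on the log2 scale, at a level far below that of GAS5. With BCT it lay below the minimum of 1 FPKM, which it passed through the DMSO samples, so no direction is drawn from it. ZBTB37, a zinc finger gene whose listed interval begins 368 bases from that of GAS5, was at 3.30 ± 0.666 FPKM with DMSO and at 5.33 ± 0.559 FPKM with BCT and was not called. SLC3A2, the amino acid transporter heavy chain gene 124 bases from SNHG1 on chromosome 11, rose from 104.0 ± 3.24 to 457.5 ± 62.0 FPKM. Its log2 fold change was 2.13 (95% interval 1.92 to 2.34), above the interval of SNHG1.

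RCC1, a nucleotide exchange factor gene for RAN on the same strand and in the same interval as SNHG3 (chromosome 1 from 28832455 to 28865708), was lower like its partner. RCC1 was at 83.0, 81.2 and 83.1 FPKM in the controls, and BCT samples measured 47.5, 46.3 and 46.7 FPKM. Its log2 fold change of -0.81 (95% interval -0.91 to -0.71) overlapped the interval of SNHG3 (-1.08 to -0.77), and it passed the FDR without reaching the fold threshold. How reads were divided between RCC1 and SNHG3 was not tested. MCMDC2 in the interval of SNHG6, PRSS12 beside SNHG8 and MYO1G beside SNHG15 had means below 1 FPKM and were not tested.

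**Figure D4:**
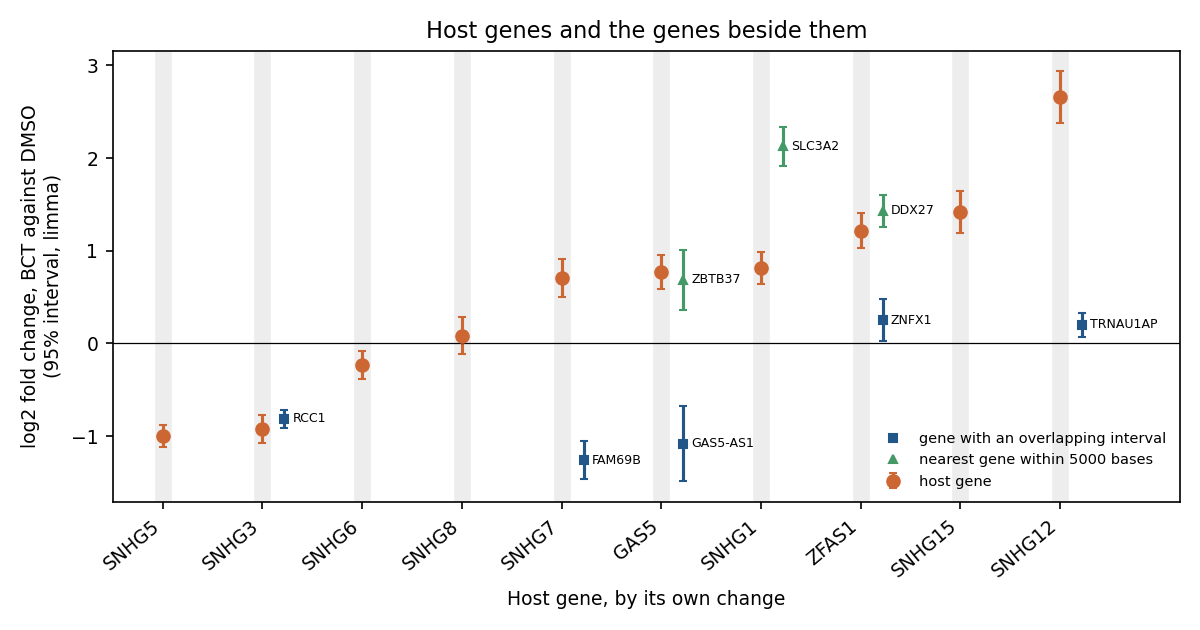
Log2 fold change, BCT against DMSO, of each host gene (circles) beside the tested genes that share its listed interval (squares) or lie nearest within 5000 bases of that interval (triangles), with 95% intervals from limma (n = 3 each). SNHG12 at 2.66 and TRNAU1AP at 0.20 differ, while SNHG3 at -0.92 and RCC1 at -0.81 overlap.

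The mature snoRNAs have rows of their own, but the deposited values hold little on them. Of 33 snoRNA rows inside the 10 hosts, 23 were listed at 0 in all 6 samples, among them 21 of the 25 C/D rows. A further 4 were above 0 in only 1 sample. These 4 reached high values from a single library, as with SNORD29 at 1371 FPKM in DMSO replicate 3, SNORD87 at 587.6 FPKM in DMSO replicate 1, SNORD76 at 355.1 FPKM in BCT replicate 2 and SNORA43 at 12.0 FPKM in DMSO replicate 2, and carry no comparison. Of those seen in at least 2 samples, SNORD22 of SNHG1 was at 11.1, 6.73 and 6.74 FPKM in the controls, and BCT samples measured 5.55, 4.84 and 5.08 FPKM. SNORD22 was not called. The number of fragments behind such low values is unknown and the estimated depth differed between the groups, so no direction is drawn from this row. SNORA73B of SNHG3 overlapped between the groups, at 1.79 to 14.3 FPKM with DMSO and 2.61 to 5.45 FPKM with BCT. SNORA24 of SNHG8 was listed at 0, 5.12 and 10.3 FPKM in the controls, and BCT samples were listed at 0, 3.69 and 3.87 FPKM. The 2 hosts with the largest rise, SNHG12 and SNHG15, hold 3 H/ACA rows with a mean of at least 1 FPKM. SNORA61 of SNHG12 was at 8.99, 21.6 and 37.8 FPKM in the controls, and BCT samples were listed at 4.43, 0 and 4.08 FPKM. SNORA44 of the same host overlapped between the groups and had a 95% interval of -1.55 to 4.55 for its log2 fold change, too wide to give a direction. It was at 0, 4.87 and 4.88 FPKM in the controls, and BCT samples measured 3.997, 3.51 and 3.68 FPKM. SNORA9 of SNHG15 was at 3.88, 4.63 and 4.64 FPKM with DMSO and listed at 0 in all BCT samples. It passed the minimum of 1 FPKM through the DMSO samples, so no direction is drawn from it. How many fragments lie behind the values of SNORA61 and SNORA9 is also unknown. A poly(A)-based kit captures spliced host RNA and is not made for RNAs as short as these, and whether such rows measure mature snoRNA was not tested.

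Other noncoding hosts, listed by hand from general knowledge, had a negative median, unlike the 10. Whether the lists differ was not tested. Of the 17 found in the files, 14 were tested, and 14 of the 17 hold a snoRNA row in the files. Of those tested, 2 were called higher and 8 lower, against 13.9% and 17.8% of all tested genes, with a median log2 fold change of -0.95. SNHG11 rose from 6.12 ± 0.536 to 26.1 ± 1.86 FPKM (SD, n = 3) and SNHG17 from 11.7 ± 0.353 to 33.6 ± 3.13 FPKM. These 2 genes lie side by side on chromosome 20. SNHG10 fell from 9.62 ± 0.800 to 2.24 ± 0.447 FPKM, SNHG4 from 4.46 ± 0.38 to 0.999 ± 0.215 FPKM and DANCR, also a host of an H/ACA snoRNA, from 127.7 ± 7.06 to 38.2 ± 3.71 FPKM. SNHG4, 1 of the 8 called lower, lay just below the minimum of 1 FPKM with BCT. It passed that minimum through the DMSO samples, so no direction is drawn from it. SNHG25 fell from 111.8, 60.0 and 39.6 FPKM to 16.6, 14.3 and 30.04 FPKM, with wide spread in both groups. Noncoding hosts therefore spread over both directions, from -2.07 to 2.66 over the 24 tested.

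A negative log2 fold change was found in 42 of 51 protein-coding hosts and in 6595 of the 12729 tested genes. Of the 51, 2 were called higher and 17 lower, against 13.9% and 17.8% of all tested genes, with a median log2 fold change of -0.74. With equal sums 8 were called higher and 3 lower, where 44.1% and 5.25% of all tested genes were. With quantile normalization the counts were 3 and 3, where 15.0% and 15.7% of all tested genes were called. The files list a snoRNA row inside 48 of the 51, HSPA8 not among them. On the values as deposited, all 25 ribosomal protein hosts had a negative log2 fold change, 15 of them called lower, with a median of -0.93. This subset was not counted under the other scalings. RPL3 fell from 2947 ± 217.2 to 775.2 ± 120.1 FPKM (SD, n = 3), RPL13A from 967.5 ± 102.0 to 298.5 ± 18.7 FPKM and RPL12 from 2016 ± 96.7 to 834.0 ± 46.0 FPKM. HSPA8, the constitutive cytosolic HSP70 gene, was at 1052, 1043 and 971.0 FPKM in the controls, and BCT samples measured 500.0, 272.2 and 265.5 FPKM, BCT replicate 1 lying apart. The 2 coding hosts called higher were EIF4A2, an initiation helicase gene, which rose from 112.5 ± 6.21 to 248.9 ± 34.9 FPKM, and CHD8, a chromatin remodeler gene, which rose from 9.39 ± 0.722 to 18.4 ± 0.971 FPKM.

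Factors that act on host RNAs and on snoRNAs were listed as well. Of 22 nonsense-mediated decay factors and their decay enzymes, 5 were called higher and 1 lower, against 13.9% and 17.8% of all tested genes, with a median log2 fold change of 0.40. With equal sums the counts were 16 and 0, where 44.1% and 5.25% of all tested genes were called. Without MIR6087 the counts were 10 and 0, where 26.5% and 9.49% were. The 4 largest rises were those of DCP1A (1.17), a decapping factor, SMG9 (1.16), a partner of the SMG1 kinase, NBAS (0.97) and XRN1 (0.93), the cytoplasmic 5′ exonuclease. DCP2, the decapping enzyme, was called lower at -1.07. UPF1, the central helicase of the pathway, was at 23.4 ± 1.03 FPKM with DMSO and 25.2 ± 0.715 FPKM with BCT. Of 17 tested snoRNP proteins and assembly factors, 1 was called higher and 2 lower, no larger a share than the 13.9% and 17.8% of all tested genes, with a median of -0.15. With equal sums 4 were called higher and 0 lower, against the same 44.1% and 5.25% of all tested genes. Fibrillarin (FBL), the C/D methyltransferase, fell from 303.6 ± 5.78 to 158.2 ± 9.95 FPKM, and NHP2, a core H/ACA protein, from 300.1 ± 8.12 to 160.6 ± 16.2 FPKM. NUFIP1, an assembly factor, rose from 6.46 ± 0.260 to 13.1 ± 0.691 FPKM.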

How the data were processed

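RNA was sequenced from 22RV1 cells treated with DMSO (3 samples) or BCT (3 samples). Per the study's methods and processing notes, reads were trimmed with Trimmomatic 0.38, aligned to hg19 with HISAT2 and assembled with StringTie; the notes also name HTSeq, and the gene annotation is not given in the sources used here. The authors deposited FPKM values, 1 file per sample. Groups and replicate numbers come from the sample titles. The 10 genes, the comparison lists and the thresholds were chosen with earlier results of these data known.

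Values were taken as log2(FPKM + 0.1), without rescaling, where the mean level reached 1 FPKM. They were tested with limma 3.58.1 (R 4.3.3), its variances moderated along a trend, and FDR values are Benjamini-Hochberg adjusted p-values over all tested genes. The pseudocount understates changes of genes of low value. The steps were tested on simulated data. An exact test of 3 against 3 samples was not used for single genes.

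Named beside the 10 genes were at most 4 called genes per list and direction with the largest change, genes that share an interval or lie nearest within 5000 bases, and snoRNA rows with a mean of at least 1 FPKM. With their values already seen, UPF1 and COL1A1 were added. Positions have 1 added to the deposited start. Alternatives covered the pseudocount, the filter, scaling, FDR, variance model, a test against the fold threshold, the replicate block and each sample left out.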

Additional observations from a re-analysis of the deposited data

How the results depend on the processing

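Of 190 results for the 10 host genes over all alternatives, 170 gave the same call in the same direction, 6 lost and 11 gained a call and 3 changed sign. Those 3 were SNHG6 with equal FPKM sums (0.54), with equal sums without MIR6087 (0.16) and with quantile normalization (0.089). FPKM values alone do not show which scaling to prefer.

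The counts of host genes called higher and lower were 7 and 0 with equal sums (44.1% and 5.25% of all tested genes), 6 and 0 without MIR6087 (26.5% and 9.49%), 6 and 1 with quantile normalization (15.0% and 15.7%) and 3 and 1 in a test against the fold threshold (8.12% and 10.9%), against 3 and 2 as deposited (13.9% and 17.8%). The median of the host genes was 1.51, 1.13 and 0.97 under the 3 scalings, or 0.79, 0.78 and 0.94 above the median of all genes. Leaving out each sample in turn gave 3 to 4 called higher, 2 called lower and a median of 0.68 to 0.82. In the same 6 runs 7 to 9 other noncoding hosts and 16 to 19 coding hosts were called lower, and 4 to 6 decay factors higher. With equal sums, 4 other noncoding hosts, 3 coding hosts, 0 decay factors, 0 snoRNP proteins and 1 other noncoding RNA were called lower, and 8 coding hosts, 16 decay factors, 4 snoRNP proteins and 6 other noncoding RNAs higher. Without MIR6087, 5 coding hosts, 0 decay factors and 0 snoRNP proteins were called lower, and 4 coding hosts, 10 decay factors and 2 snoRNP proteins higher. Quantile normalization called 3 coding hosts and 0 snoRNP proteins lower. A minimum of 5 FPKM, which tests fewer genes, left 5 other noncoding hosts and 1 other noncoding RNA called lower (16.9% of all genes tested there). With a pseudocount of 1, 3 decay factors were called higher (11.0% of all tested genes). The test against the threshold called 0 coding hosts, 2 decay factors and 0 snoRNP proteins higher, and 8 coding hosts and 0 snoRNP proteins lower. Beyond the construction of each alternative, the cause was not tested.

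Samples share replicate numbers 1 to 3, but the deviations of same-numbered samples correlated at 0.116, 0.033 and 0.034, so the numbers were not taken as pairs. With the replicate block, 3 host genes were called higher and 2 lower, with a median of 0.74, and over all tested genes 1767 were called higher and 2266 lower, against 1764 and 2263 without it.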

Other observations

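Of 12 tested long noncoding RNAs that are not in the host lists, 3 were called higher and 2 lower in BCT-treated cells (limma with Benjamini-Hochberg adjustment), against 13.9% and 17.8% of all tested genes, and the median log2 fold change was 0.032. Counts this small do not set the list apart from other genes. MIR22HG, the host transcript of a microRNA, rose from 2.16 ± 0.401 to 13.3 ± 0.862 FPKM (SD, n = 3) and NEAT1, the scaffold RNA of paraspeckles, from 26.1 ± 4.78 to 57.9 ± 9.66 FPKM. OIP5-AS1 fell from 61.4 ± 0.546 to 23.5 ± 2.38 FPKM. LINC00152 was at 0.257 ± 0.023 FPKM with DMSO and 8.10 ± 0.366 FPKM with BCT, and H19, an imprinted RNA, at 2.81 ± 0.344 and 0.595 ± 0.15 FPKM. Both lay below the minimum of 1 FPKM in 1 group and passed it through the group in which they are high, so these 2 values support no direction of the list.

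Over the 6 samples, the tested genes whose log2 values lay closest to the median profile of the 10 host genes, by Euclidean distance after subtracting each gene's mean, were MAD2L1BP (0.053), FOXO3 (0.062), LINC01578 (0.068), ZCCHC3 (0.079) and WIBG (0.083). Their log2 fold changes lay between 0.70 and 0.72, and all 6 values of each follow the same split of 3 and 3 samples. Among the hosts, the closest pair by the same measure was GAS5 and SNHG7 (0.12), and the farthest SNHG5 and SNHG12 (4.50).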
